A study of Homo sapiens with 4 samples.

Results

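The combination of Sonazoid and ultrasound was compared with no treatment in U937 cells, over the 41091 probe sets, of 54675 on the array, that carry 1 gene symbol. They stand for 19775 genes. U937 is an established human cell line that resembles early monocytes, called a lymphoma line in the sample labels and leukemia cells in the series title. The comparison holds 2 of the 4 arrays of the series, 1 for each group: control cells cultured without treatment, and cells given 0.05% Sonazoid together with 1 min of ultrasound (intensity 0.3 W/cm2) and collected after 3 h of incubation. The other 2 arrays, 1 for cells given 0.05% Sonazoid only and 1 for cells given ultrasound only (the same intensity and duration, both with the same 3 h incubation), are quoted beside the values. All 4 groups are the same line with no genetic change named.

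Sonazoid is a contrast agent of gas-filled microbubbles in a lipid shell. In an ultrasound field microbubbles oscillate and can collapse, and nearby membranes are then exposed to shear and to short-lived pores. Cells that survive such stress switch on immediate early genes, which are transcribed without new protein synthesis and encode unstable transcription factors and signalling brakes, together with chaperones, antioxidant enzymes and membrane repair proteins. The comparison asks which genes differ after the combined treatment. The sources used here do not say whether the control cells were held for the same 3 h, so that incubation and the treatment cannot be told apart.

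Values are probe set signals (intensity, linear scale) after each array was scaled to 1 common trimmed mean. A gene is represented by its brightest probe set, signals under the floor of 23.8 (the median of all scaled signals) were set to it, and a difference with 1 array below the floor is a lower bound, written "at least". Of the 19775 genes, 12962 were above the floor on at least 1 of the 2 arrays. Each difference is between single arrays, with no replicate check and no test. In these whole-culture samples, fewer cells that express a gene and less of its RNA per cell cannot be told apart.

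In all, 180 of 12962 genes (1.39%) were at least 2-fold higher in the combination and 113 (0.872%) at least 2-fold lower, 38.6% of the 293 being lower. With the values as deposited, without scaling, 301 were higher (2.3%) and 73 lower (0.557%), 19.5% of them lower, and the median of all genes moved by 0.17 on the log2 scale. Bright genes at 2-fold were nearly all higher. With a stricter floor of 151, the 75th percentile of all signals, 43 of 7797 genes (0.551%) were at least 2-fold higher and 5 (0.0641%) lower. The scatter of log2 differences narrowed with signal: from the 5th to the 95th percentile it ran from -0.85 to 0.84 for the 3138 genes with a mean signal of 23.8 to 50, and from -0.24 to 0.26 for the 957 genes with 2000 to 5000.

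**Figure D1:**
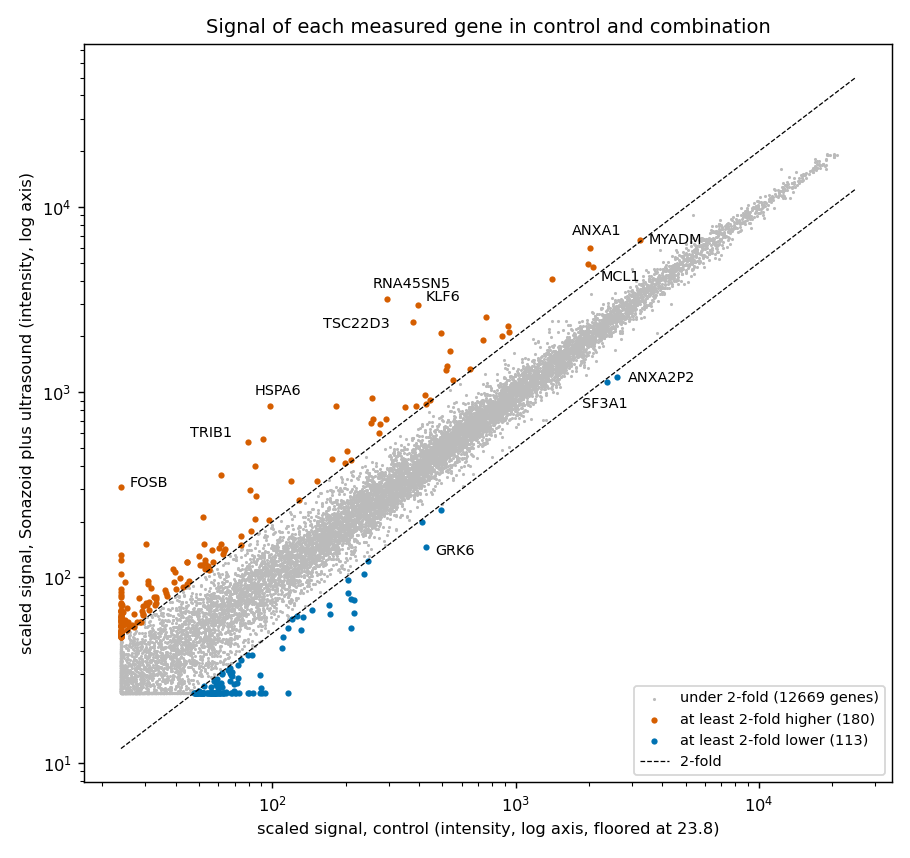
Scaled signal of each of 12962 genes in control (x axis, log scale) and in the combination (y axis, log scale), with values under 23.8 set to that floor and dashed lines at 2-fold. The 180 higher genes (orange) reach from the floor to a combination signal of 6606 for MYADM, whereas most of the 113 lower genes (blue) lie near the floor.

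**Figure D2:**
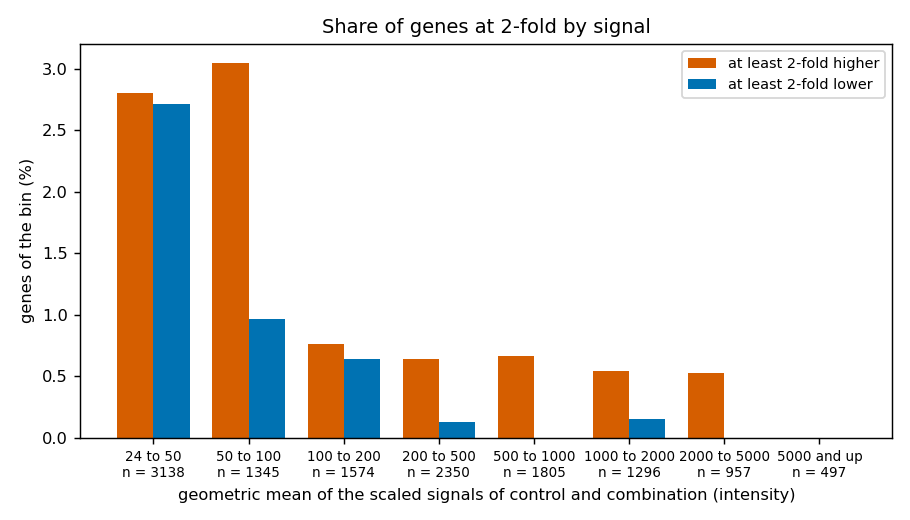
Share of genes at least 2-fold higher or lower (y axis, percent of the genes of a bin) by the geometric mean of both signals (x axis, intensity). The shares are 2.80% and 2.71% in the dimmest bin, and 0.665% and 0 from 500 to 1000.

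The labelled cell type was checked against its markers. Of 14 monocyte and myeloid progenitor markers with a probe set, 13 were above the floor, with a summed signal of 41655 in control and 40095 in the combination. Cathepsin G (CTSG) stood at 12515 and 11558, neutrophil elastase (ELANE) at 9238 and 8897 and lysozyme (LYZ) at 5577 and 5863 in control and combination, while myeloperoxidase (MPO) was below the floor on both. The receptor CSF1R was 2.41-fold higher (32.7 and 78.9) and the lineage factor SPI1 2.03-fold lower (120.2 and 59.3). Markers of other cells were few. Of 12 T and NK cell markers 3 were above the floor, with sums of 3081 and 3289 that came almost wholly from NKG7 (2919.9 and 3197), and the defining CD3D, CD3E and CD3G were below it. Of 8 B and plasma cell markers 5 were above it (sums of 308 and 254, CD79B and JCHAIN below), of 7 erythroid and platelet markers 3 (151 and 124, PF4 and PPBP below), of 9 epithelial markers 4 (141 and 206, EPCAM and CDH1 below), and of 12 fibroblast and endothelial markers 6 (959 and 926, VWF and CDH5 below). BLK among the B cell markers (61.4 and 4.75) and the keratin KRT8 among the epithelial markers (18.6 and 59.2) were the members at 2-fold. The part of these markers in the results below was not tested.

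The stretches of the genome before the start sites of 7 genes higher in the combination are shown because these genes stand for the heat shock, immediate early, stress-brake and interferon groups described below. The first 6 were picked from windows that hold a motif, and KLF6 is shown as a window that holds none. Each is the 250 bases before the RefSeq start site, 5′ to 3′ on the gene's strand (build GRCh38.p14). Capitals mark the letters of motifs found by search. These were the cAMP response element TGACGTCA with its core TGACG (which the full element contains), the heat shock element (GAA, TTC and GAA with 2 free bases between neighbours), the interferon-stimulated response element (GAAA, 2 free bases, GAAA), the AP-1 site TGANTCA and the NF-kB site GGGANTTCC, all on both strands, and the TATA box TATAAA on the gene's strand only.
HSPA6: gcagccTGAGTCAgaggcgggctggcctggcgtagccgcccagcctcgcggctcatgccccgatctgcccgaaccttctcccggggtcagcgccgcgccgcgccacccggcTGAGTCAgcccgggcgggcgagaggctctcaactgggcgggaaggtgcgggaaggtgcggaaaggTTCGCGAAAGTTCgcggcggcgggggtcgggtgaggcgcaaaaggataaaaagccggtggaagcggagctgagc
FOS: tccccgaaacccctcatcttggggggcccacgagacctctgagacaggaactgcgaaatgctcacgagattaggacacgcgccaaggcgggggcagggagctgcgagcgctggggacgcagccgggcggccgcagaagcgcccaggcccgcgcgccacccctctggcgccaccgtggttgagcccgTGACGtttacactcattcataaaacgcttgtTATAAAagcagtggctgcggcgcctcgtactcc
FOSB: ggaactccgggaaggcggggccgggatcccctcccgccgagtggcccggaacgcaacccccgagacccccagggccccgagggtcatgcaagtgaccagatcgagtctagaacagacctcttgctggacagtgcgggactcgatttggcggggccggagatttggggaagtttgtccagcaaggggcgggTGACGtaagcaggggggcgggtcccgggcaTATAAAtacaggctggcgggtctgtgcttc
PPP1R15A: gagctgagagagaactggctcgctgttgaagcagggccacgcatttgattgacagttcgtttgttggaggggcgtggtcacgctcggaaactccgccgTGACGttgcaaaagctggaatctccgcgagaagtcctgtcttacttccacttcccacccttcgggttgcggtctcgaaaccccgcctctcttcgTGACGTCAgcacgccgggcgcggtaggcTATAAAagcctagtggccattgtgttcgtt
DUSP1: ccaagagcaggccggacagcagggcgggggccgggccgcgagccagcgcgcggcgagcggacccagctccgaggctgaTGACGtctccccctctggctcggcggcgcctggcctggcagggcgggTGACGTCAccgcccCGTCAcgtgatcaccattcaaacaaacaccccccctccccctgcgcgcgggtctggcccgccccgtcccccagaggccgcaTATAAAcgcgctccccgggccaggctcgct
IFIT1: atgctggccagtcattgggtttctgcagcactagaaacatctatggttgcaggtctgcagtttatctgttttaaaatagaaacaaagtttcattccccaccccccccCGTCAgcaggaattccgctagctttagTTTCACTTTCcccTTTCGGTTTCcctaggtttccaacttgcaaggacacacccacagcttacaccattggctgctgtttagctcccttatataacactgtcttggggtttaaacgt
KLF6: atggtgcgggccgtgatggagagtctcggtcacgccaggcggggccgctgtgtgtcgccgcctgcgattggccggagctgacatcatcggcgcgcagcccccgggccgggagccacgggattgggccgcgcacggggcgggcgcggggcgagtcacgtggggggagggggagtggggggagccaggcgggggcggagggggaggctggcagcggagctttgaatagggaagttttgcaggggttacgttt

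These windows lie at chr1:161524290-161524539, plus strand (HSPA6), chr14:75278578-75278827, plus strand (FOS), chr19:45467746-45467995, plus strand (FOSB), chr19:48872171-48872420, plus strand (PPP1R15A), chr5:172771196-172771445, minus strand (DUSP1), chr10:89392373-89392622, plus strand (IFIT1) and chr10:3785210-3785459, minus strand (KLF6). In HSPA6 the heat shock element begins 74 bases before the start site, with AP-1 letters at 244 and 139 bases before it. FOS and FOSB have a cAMP core at 64 and 60 bases and a TATA box at 33 and 30 bases before the start. The full cAMP response element stands 58 bases before the start of PPP1R15A and 125 bases before that of DUSP1, each with a TATA box at 30 bases, and IFIT1 has interferon-stimulated elements at 116 and 103 bases. The window of TSC22D3, like that of KLF6, held none of the motifs, and that of the heat-inducible ZFAND2A held the cAMP core but no heat shock element. The heat shock element occurs in 0.440% of the 27303 windows searched, the full cAMP element in 1.77% and the interferon-stimulated element in 3.07%.

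Among the 43 higher genes of the stricter floor, 34 had a window. The cAMP core was in 16 of them (47.1%) and the TATA box in 6 (17.6%), against 32.6% and 3.11% of the 6597 genes measured with that floor that have a window. The AP-1 site and the NF-kB site were each in 1 of the 34 (2.94%, against 3.40% and 2.26%). The share with the cAMP core also moved with signal, from 21.7% of all 27303 windows to 29.2% of the 10494 of genes measured with the usual floor. Over the 146 windows of all higher genes the shares with the cAMP core and the TATA box were 25.3% and 10.3%, against 29.2% and 4.05% of measured genes. The full cAMP element was in 4 of these 146 (2.74%, against 2.81% of measured genes), the AP-1 site in 15 (10.3% against 4.12%), the NF-kB site in 7 (4.79% against 2.11%), the heat shock element in 1 and the interferon-stimulated element in 2. Of the 72 windows of lower genes, 23 held the cAMP core (31.9%), 1 the TATA box, 2 the AP-1 site (2.78%) and 3 the NF-kB site (4.17%). The serum response element core was searched as well, but only as 1 exact string of letters with no free base. It was in 0 of the 146 higher windows, 4 of the 10494 of measured genes and 9 of all 27303. A string this rare would be missing from most sets of 146 windows, and bases beyond the 250 were not searched. Whether higher genes have serum response elements was therefore not tested. A match to any of these motifs is a description of letters and not of a bound site.

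Of the transcription factor families of the immediate early class, a minority of members was at 2-fold higher, namely 4 of 13 AP-1 and ATF genes, 3 of 14 Krueppel-like factors and 3 of 12 EGR, NR4A and IER genes. Over all genes measured 1.39% were at least 2-fold higher and 0.872% lower, and these shares stand beside each list count below. The lists were chosen with earlier results of these data known. FOSB, a partner of the JUN proteins in the AP-1 dimer, was below the floor in control (4.13) and with Sonazoid only (3.56), and stood at 360.0 with ultrasound only and 307 in the combination, at least 12.9-fold above control. FOS stood at 84.9 in control, 84.8 under Sonazoid alone, 400.3 under ultrasound alone and 398 in the combination. Both ultrasound arrays were high for these genes and the other 2 low. JUN, their DNA-binding partner, was at 522 in control cells, 550.4 with the agent alone, 1306 with sound alone and 1378 with both on its brightest probe set. Its 3 other probe sets had log2 differences of 0.98 to 2.00. ATF3, a stress-inducible repressor of the same family, was 2.40-fold higher (60.4 and 145), with its other probe set at log2 0.28. MAFF, a small MAF protein, was 0.90 higher on the log2 scale (108 and 202), JUND 0.74 (2047 and 3408), and FOSL1, FOSL2, JUNB, BATF and BATF3 lay between 0.04 and 0.31. The median of the 13 measured AP-1 and ATF genes was 0.31 against -0.0030 over all genes measured.

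The Krueppel-like zinc finger factors showed the same mixture. KLF6 was at 397 in control, 394 under Sonazoid alone, 2852 under ultrasound alone and 2968 in the combination. Of its 4 other probe sets 3 were between 2.69 and 3.08 higher on the log2 scale and the last was a bound of at least 0.86. KLF4, which drives monocyte differentiation, was at 183 in control cells, 253 with the agent alone, 636 with sound alone and 838 with both, so the Sonazoid array also lay above control. KLF2 was counted at 2-fold through a bound (5.78 and 124) on a probe set that is not gene-specific, and its other above-floor probe set was at log2 -0.15, positive with the values as deposited. The family median was 0.26, which turned to -0.06 with gene-specific probe sets. Among the EGR, NR4A and IER genes the zinc finger factor EGR3 was 2.72-fold higher (44.3 and 121), the orphan nuclear receptor NR4A2 2.37-fold (24.8 and 58.7, with 2 other probe sets at log2 0.59 and 0.93) and IER3 2.04-fold (128 and 262). EGR1 (334 and 404), IER2 (2593 and 2482) and IER5 (765 and 1117) differed by log2 0.27, -0.06 (above 0 with the values as deposited) and 0.55. The median of the 12 measured members was 0.35, the highest of the 61 gene lists.

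Some genes that encode brakes on signalling were among the largest differences. TRIB1, a pseudokinase that targets C/EBP proteins for degradation, was at 79.2 in control, 45.7 under Sonazoid alone, 326 under ultrasound alone and 539 in the combination. It was the 1 of 9 Tribbles and C/EBP genes at 2-fold; 6 of the 9 lay below 0, and their median was -0.15 (0.02 without scaling). RGS2, which speeds GTP hydrolysis by G protein alpha subunits, was at 91.7 in control cells, 72.3 with the agent alone, 543 with sound alone and 557 with both. DUSP1, the phosphatase of p38 and JNK, was 3.65-fold higher (80.8 and 295), with its other probe set at log2 0.79. DUSP10 was 2.18-fold higher (81.7 and 178), with its other at 0.36. DUSP2, which acts on ERK, was 1.93-fold lower (289.7 and 150.4). PHLDA1 was 5.77-fold higher on its brightest probe set (61.7 and 356), while its 5 others ranged from -0.38 to 2.02. In the list of 18 MAPK phosphatases and ERK feedback genes 3 were at 2-fold (median 0.10). Of 14 RGS proteins, GRKs and arrestins, RGS2 and RGS1 (at least 2.56-fold) were higher and the receptor kinase GRK6 was lower (427, 518, 177 and 145 on the control, Sonazoid, ultrasound and combination arrays). Its 3 other probe sets had log2 differences of -0.46 to -0.01.

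Among stress chaperones and enzymes a few members were at 2-fold and the list medians were near 0 (0.05 for heat shock proteins and co-chaperones, 0.02 for antioxidant genes). HSPA6, the strictly inducible HSP70, was at 97.3 in control, 58.5 under Sonazoid alone, 780.0 under ultrasound alone and 844 in the combination. Its second probe set was 3.26 higher on the log2 scale (3.12 for the brightest). ZFAND2A, an arsenite- and heat-inducible partner of the proteasome, was at 424 in control cells, 487 with the agent alone, 919.5 with sound alone and 963 with both. HSPA6 was the 1 of 26 measured heat shock proteins and co-chaperones at 2-fold. HSPA1A, HSPA1B and HSPA8 have no probe set with that symbol alone and were not analysed here. The co-chaperone DNAJA4 stood at 118 and 226 (log2 0.94, its 3 other probe sets at -0.04 to 1.04) and DNAJB2 at 25.9 and 44.4 (0.78). HMOX1, which degrades heme, was at 758 in control, 663 under Sonazoid alone, 2306 under ultrasound alone and 2550.0 in the combination. In the iron handling list biliverdin reductase A (BLVRA), the next enzyme of that pathway, was 1.44-fold higher (922 and 1328, its 2 other probe sets at log2 -0.04 and 0.16), while the iron exporter SLC40A1 (236 and 168) and the transporter SLC11A1 (65.7 and 36.6) were 1.40-fold and 1.80-fold lower. The 3 other probe sets of SLC11A1 ran from log2 -0.93 to 0.36. HMOX1 and SOD2 were the 2 of 21 antioxidant genes at 2-fold. SOD2 stood at 36.9, 73.5, 54.3 and 79.7 on the control, Sonazoid, ultrasound and combination arrays.

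In the integrated stress response, in which phosphorylated eIF2 alpha slows translation, PPP1R15A, the subunit that recruits the phosphatase to reverse it, was at 257 in control cells, 248 with the agent alone, 1043 with sound alone and 933 with both. DDIT4, an inhibitor of mTORC1, was at 538 in control, 549.7 under Sonazoid alone, 1700.2 under ultrasound alone and 1666 in the combination. These were the 2 of 20 measured members at 2-fold. ATF4 (3916 and 5825) was 1.49-fold and KLHL24 (79.8 and 118) 1.47-fold higher, although the 3 other probe sets of KLHL24 ran from log2 -0.34 to 0.65. SGK1, a kinase induced by serum, glucocorticoids and osmotic stress, was at 259.8 in control cells, 294 with the agent alone, 565 with sound alone and 715 with both. TSC22D3, the glucocorticoid-induced leucine zipper, was at 379.9 in control, 369 under Sonazoid alone, 2536 under ultrasound alone and 2384 in the combination on a probe set that is not gene-specific. Its relative TSC22D4 was at least 3.91-fold lower, from 93.2 to 23.3. The polyamine acetyltransferase SAT1 was at 942 in control cells, 1117 with the agent alone, 1590.5 with sound alone and 2112 with both, and it was the 1 of 14 polyamine genes at 2-fold. Its 2 other probe sets were 0.78 and 0.89 higher on the log2 scale.

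Few survival and death genes were at 2-fold. Over all genes measured 1.39% were at least 2-fold higher and 0.872% lower, so counts of 0 or 1 in lists of this size are no result about these families. MCL1, a short-lived member of the BCL2 family that holds back apoptosis, was at 2085 in control, 2057 under Sonazoid alone, 5199 under ultrasound alone and 4762 in the combination, and all 5 of its other probe sets were at least 2-fold higher (log2 1.11 to 1.93). It was the 1 of 17 BCL2 family genes at 2-fold (median -0.01, positive with the values as deposited). STK17B, a serine/threonine kinase related to DAP kinase, was at 426 in control cells, 557 with the agent alone, 758 with sound alone and 864 with both. TNFRSF12A, the receptor for the cytokine TWEAK, was at 198 in control, 202 under Sonazoid alone, 506 under ultrasound alone and 414 in the combination. Of 26 death receptor and caspase genes 0 were at 2-fold, with the decoy receptor TNFRSF10D at 174 and 296 (log2 0.77) and APAF1, the core of the apoptosome, at 175 and 111 (-0.65), while the other probe set of APAF1 was at 0.14. Of 18 growth arrest genes of the p53 type 0 were at 2-fold, but 13 lay above 0 and the median was 0.18 (0.02 with gene-specific probe sets), with PLK3 at 44.2 and 87.6 (0.99) and CDKN1A at 77.0 and 133 (0.79).

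**Figure D3:**
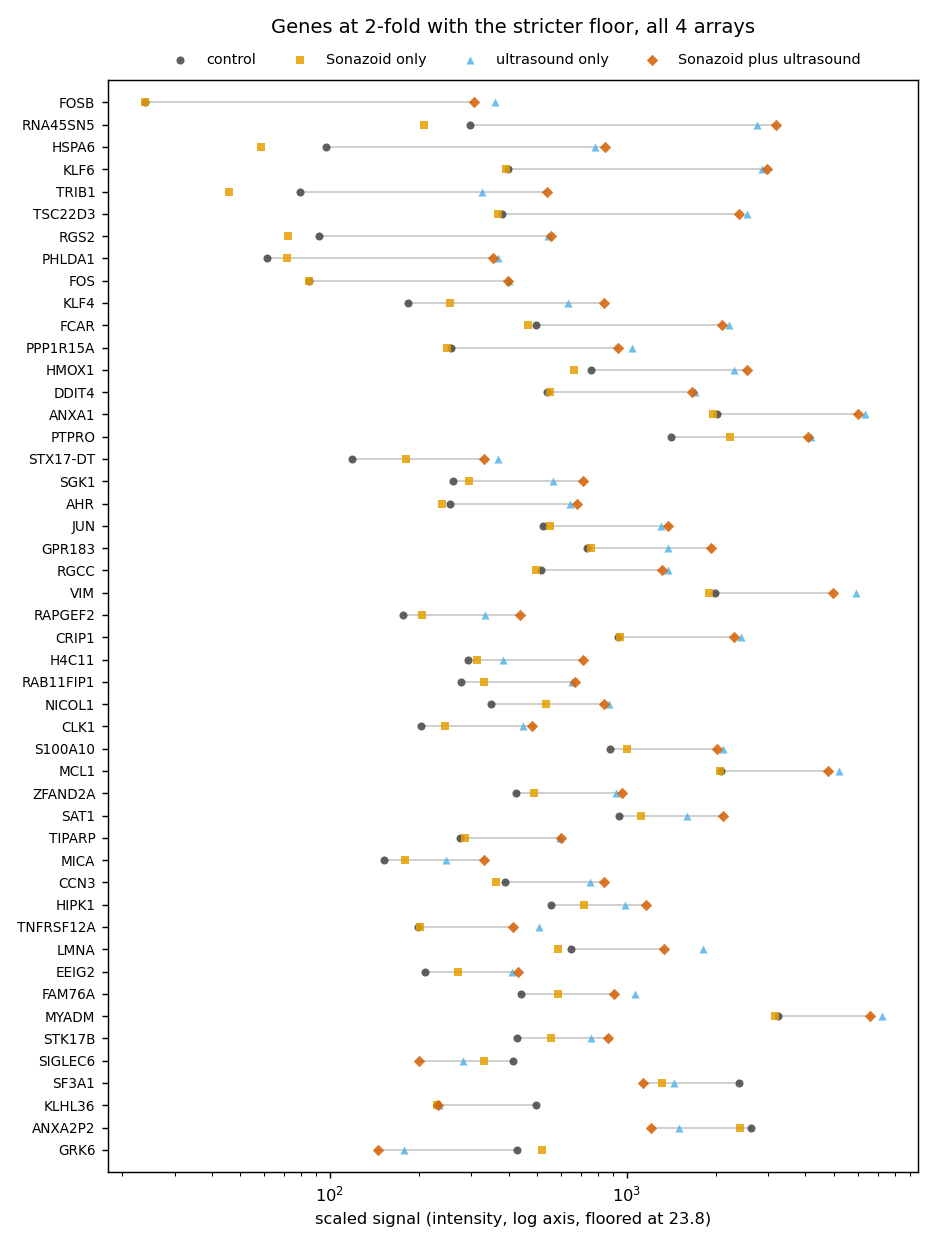
Scaled signal on the 4 arrays (x axis, log scale; black control, yellow Sonazoid only, blue ultrasound only, orange combination) of the 43 genes at least 2-fold higher and the 5 lower with the stricter floor of 151, 1 row a gene, ordered by the log2 difference. FOSB runs from below the floor to 307 and MYADM from 3245 to 6606, and in most rows of higher genes the orange and blue points lie together to the right of the black and yellow ones.

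Of the 43 higher genes of the stricter floor, the membrane and cytoskeleton genes MYADM, ANXA1 and VIM had the highest signals in the combination. ANXA1, which binds phospholipid in the presence of calcium, was at 2013 in control cells, 1949 with the agent alone, 6326 with sound alone and 6005 with both. MYADM, a membrane raft protein, was at 3245 in control, 3161 under Sonazoid alone, 7220.5 under ultrasound alone and 6606 in the combination, and its second probe set was 1.49 higher on the log2 scale (1.03 for the brightest). S100A10, the partner of annexin A2, was at 878 in control cells, 1002 with the agent alone, 2112 with sound alone and 2008 with both, with its other probe set at log2 0.32. VIM, the intermediate filament vimentin, was at 1980.3 in control, 1899 under Sonazoid alone, 5915 under ultrasound alone and 4939 in the combination, and its other probe set stood just above the floor in the combination alone. LMNA, which encodes lamins A and C of the nuclear envelope, was at 648 in control cells, 587 with the agent alone, 1805 with sound alone and 1335 with both. Of the 4 other above-floor probe sets of LMNA 3 were also at 2-fold (log2 1.08 to 1.39) and the last differed by 0.37. The B-type lamins LMNB1 (613 and 677) and LMNB2 (945 and 922), chosen after their values were seen, differed by log2 0.14 and -0.04, the latter positive before scaling.

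CRIP1, a small LIM protein, was at 934 in control, 947 under Sonazoid alone, 2432 under ultrasound alone and 2289.6 in the combination. EMP1, a tetraspan membrane protein, was 4.13-fold higher (51.6 and 213) and the channel subunit PANX1 1.85-fold (242 and 446). RAB11FIP1, an effector of RAB11 in endosome recycling, was at 276 in control cells, 331 with the agent alone, 653 with sound alone and 672 with both, with other probe sets at log2 1.23 and 0.02. IDS, a lysosomal sulfatase, had 5 probe sets at 2-fold, 1 of them as a bound, although its brightest was at log2 0.82 (440.1 and 778). Of 16 annexin and S100 genes 3 were at 2-fold, 13 lay above 0, and the median was 0.26. S100A6 (4561 and 5862), S100A4 (6897 and 8546) and ANXA5 (970.2 and 1174) differed by log2 0.36, 0.31 and 0.27. The 27 membrane repair and channel genes had a median of 0.09 with 1 at 2-fold. The 20 SRF and actin genes had -0.06 (positive with the values as deposited) with 0, and zyxin (ZYX) stood at 751 and 528.

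ANXA2P2, a processed pseudogene of annexin A2, was lower, at 2620.3 in control, 2411 under Sonazoid alone, 1495 under ultrasound alone and 1209 in the combination. ANXA2 itself, chosen after its values were seen, was at 6632 in control cells, 6743 with the agent alone, 8016 with sound alone and 7888 with both, and its 3 above-floor probe sets were between 0.22 and 0.28 higher on the log2 scale. The probe set of ANXA2P2 is not gene-specific, so which transcripts it reports was not tested.

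Surface receptors of myeloid cells and leukocytes were higher in part. FCAR, the receptor for IgA, was at 495 in control, 467 under Sonazoid alone, 2211 under ultrasound alone and 2092 in the combination, and 2 of its 4 other above-floor probe sets were at 2-fold (log2 1.97 and 1.87). GPR183, an oxysterol receptor that guides immune cell migration, was at 736 in control cells, 761 with the agent alone, 1379.9 with sound alone and 1919.8 with both. PTPRO, a receptor tyrosine phosphatase, was at 1405 in control, 2223 under Sonazoid alone, 4171 under ultrasound alone and 4087 in the combination. Its other probe sets were below the floor on all 4 arrays. CSF1R, TREM1 and FPR1 joined FCAR as the 4 of 23 myeloid receptors at 2-fold (median 0.10). FPR1 was counted through a bound on a probe set that is not gene-specific. It stood at 16.2, 44.8, 24.3 and 51.0 on the control, Sonazoid, ultrasound and combination arrays. The niacin and hydroxy acid receptor HCAR3 went from a control signal of 1.86, under the floor, to 66.1, which is at least 2.77-fold higher. The lysophosphatidic acid receptor LPAR2 was lower on both of its probe sets, at least 3.34-fold on the brighter (79.6 and 15.3), with ultrasound only at 99.6 there. Of 27 leukocyte G protein-coupled receptors 2 were higher and 1 lower at 2-fold, and of 27 integrin and adhesion genes 0.

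Ligands of NKG2D, the activating receptor of natural killer cells, were chosen as a group after the values of 2 of them were seen. MICA was at 153 in control cells, 179 with the agent alone, 247 with sound alone and 332 with both. ULBP2 was at 57.0 in control, 90.7 under Sonazoid alone, 122 under ultrasound alone and 121 in the combination on its brightest probe set and went from below the floor (9.14) to 77.7 on the other. MICB stood at 824 and 817, and ULBP1, ULBP3 and RAET1E were below the floor on both arrays.

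Inflammatory and interferon genes were higher in small subsets. CXCL2, a chemokine for neutrophils, was 2.44-fold higher (84.5 and 206) on a probe set that is not gene-specific, while its 2 others were at log2 0.11 and 0.35 and the mean of its probe sets at 0.58. CXCL8 was 1.44-fold higher (755 and 1084). Of 18 measured cytokines 1 was at 2-fold (median 0.23, 0.04 with gene-specific probe sets). TNFAIP3, a deubiquitinase that ends NF-kB signals, was at 414 and 678 (log2 0.71) and CYLD, another such enzyme, at 125 and 75.9 (-0.72). The 3 other probe sets of CYLD ran from -0.29 to 0.54 and their mean with the brightest was -0.08, positive with the values as deposited. NFKBIZ was the 1 of 22 NF-kB subunits and inhibitors at 2-fold, with its other probe set at log2 0.42. TICAM1, the adaptor TRIF of Toll-like receptors, was 2.40-fold higher (39.2 and 94.1). IFIT1, which binds viral RNA, was at 30.1 in control cells, 43.0 with the agent alone, 155 with sound alone and 152 with both, and IFIT2 was at least 5.55-fold higher (21.5 and 132). Of 20 interferon-stimulated genes these 2 were higher at 2-fold. The ISG15 protease USP18 was lower (205, 136, 175 and 82.7 on the control, Sonazoid, ultrasound and combination arrays), and the list median was -0.06 (positive with the values as deposited).

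The aryl hydrocarbon receptor AHR, a ligand-activated transcription factor, was at 254 in control, 238 under Sonazoid alone, 644 under ultrasound alone and 678 in the combination. TIPARP, an ADP-ribosyltransferase encoded by a target gene of that receptor, was at 274 in control cells, 286 with the agent alone, 594 with sound alone and 600.1 with both. Other genes of the axis went other ways: CYP1A1 was 1.60-fold lower (62.9 and 39.4), IDO1 at least 2.11-fold lower (50.4 and 5.67), and the list of 9 had a median of 0.11. BCL6, a repressor, was at log2 0.80 on its brightest probe set (123 and 214) and at 1.37 and at least 1.01 on its 2 others. RGCC, a regulator of the cell cycle, was at 515 in control, 496 under Sonazoid alone, 1378 under ultrasound alone and 1312 in the combination. CCN3, a matricellular protein, was at 389 in control cells, 362 with the agent alone, 754 with sound alone and 838 with both, with its second probe set at log2 1.46. RAPGEF2, an exchange factor for RAP proteins, was at 176 in control, 205 under Sonazoid alone, 333 under ultrasound alone and 437 in the combination, and HIPK1, a nuclear kinase, at 554 in control cells, 716 with the agent alone, 988 with sound alone and 1158 with both, with 3 other probe sets between log2 -0.23 and 0.62.

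**Figure D4:**
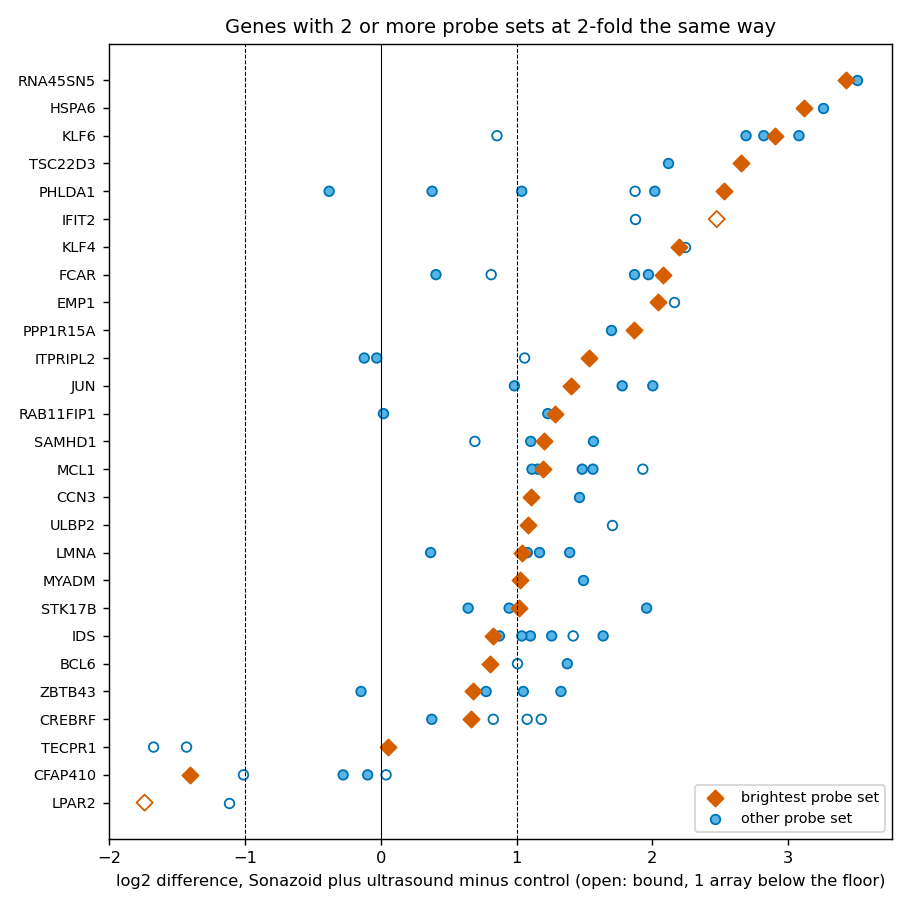
Log2 difference, combination minus control (x axis), of every above-floor probe set of the 24 genes with at least 2 probe sets at 2-fold higher and the 3 with 2 at 2-fold lower (rows). Diamonds are the brightest probe sets, circles the others, and open marks are bounds with 1 array below the floor. RNA45SN5, HSPA6, KLF4, EMP1, PPP1R15A, MCL1, CCN3, MYADM, TSC22D3, ULBP2 and IFIT2 have every mark beyond 1.

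Probe sets of the same gene gave a check within the arrays. It left out probe sets below the floor in control and combination. All other probe sets of ANXA1, PTPRO, TRIB1, RGCC, STX17-DT and CACNG4 were of this kind. Of 6339 genes with at least 2 above-floor probe sets, 24 (0.379%) had 2 or more at 2-fold higher with none 1.5-fold the other way, and 3 (0.0473%), namely LPAR2, CFAP410 and TECPR1, had 2 or more lower. For TECPR1 both were bounds and the brightest differed by log2 0.05. Of the 65 higher genes with another above-floor probe set, 20 (30.8%) had another one at 2-fold the same way. Of the 36 lower genes 2 (5.56%) had one. Among the 6234 genes under 2-fold 2.20% had such a probe set. In 14 of the 65 higher genes (21.5%) and 12 of the 36 lower genes (33.3%) all other probe sets went the opposite way. The share was 28.9% among the genes under 2-fold.

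Of the genes measured above the floor in control and combination alike, RNA45SN5 differed most. It encodes the 45S transcript from which the 18S, 5.8S and 28S RNAs are cut. Its brightest probe set was at 296 in control, 208 under Sonazoid alone, 2749 under ultrasound alone and 3181 in the combination. Its second probe set was 3.51 higher on the log2 scale. Whether these probe sets report the precursor or the RNAs cut from it was not tested. The array's own control probe sets for 28S RNA stood at 358 in control, 566 under Sonazoid alone, 2005 under ultrasound alone and 16854 in the combination for the 5′ end, at 1258 and 5059.8 in control and combination for the middle, and at 34.8 and 31.8 for the 3′ end. Those for 18S RNA were 1.42-fold to 1.76-fold higher. Probe sets for 4 bacterial transcripts that serve as poly-A controls were higher in 23 of 24 cases (median 1.56-fold, and 1.36-fold with Sonazoid only and 1.23-fold with ultrasound only), whereas the 18 for the hybridisation controls were 0.768 to 0.935 of control. The sources used here do not say whether poly-A controls were added, and the part of these amounts in the gene results was not tested. The genes of RNA polymerase I and ribosome synthesis did not share the difference. Of 26 measured RNA45SN5 alone was at 2-fold, POLR1A, the largest subunit, was 1.86-fold lower (205 and 110.3), the nucleolar factor TCOF1 1.76-fold higher (193 and 339.9, its 2 others at log2 -0.22 and 0.98), and the median was -0.16 (positive by 0.02 with the values as deposited).

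Lists of basic cell functions stood close to 0. Of 33 cytosolic ribosomal proteins (median -0.06), 33 oxidative phosphorylation genes (0.05), 30 proteasome subunits (-0.02), 18 aminoacyl-tRNA synthetases (-0.07), 40 mitosis genes (-0.09) and 40 G1/S genes (-0.02), 0 were at 2-fold either way. Over all genes measured 1.39% were at least 2-fold higher and 0.872% lower. Of the 497 genes with a mean signal of 5000 or more, 0 were at 2-fold. A count of 0 is therefore not particular to these lists. Without scaling each of these medians moved up about as that of all genes did (by 0.17), and relative to all genes they then stood between -0.08 and 0.06. The MYC and MAX network had the lowest median of the 61 lists, -0.26 over 13 genes and -0.09 with the values as deposited. MYC, which drives ribosome and growth genes, was at 6836 and 5243, its partner MAX at 3355 and 2551 (4 other probe sets from log2 -0.43 to 0.24), the MAX-binding antagonist MXI1 at 1000.2 and 751, and TFAP4 at 74.5 and 37.5. In the splicing list of 32 the kinase CLK1, which phosphorylates SR proteins, was at 203 in control cells, 244 with the agent alone, 449 with sound alone and 479.8 with both and HNRNPL at 1300.3 in control, 1053 under Sonazoid alone, 921 under ultrasound alone and 706 in the combination. The replication-dependent histones had a median of 0.18 over 20 genes, but -0.12 with gene-specific probe sets. H4C11, a histone H4 gene outside that list, was at 293 in control cells, 312 with the agent alone, 383 with sound alone and 714 with both on a probe set that is not gene-specific.

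**Figure D5:**
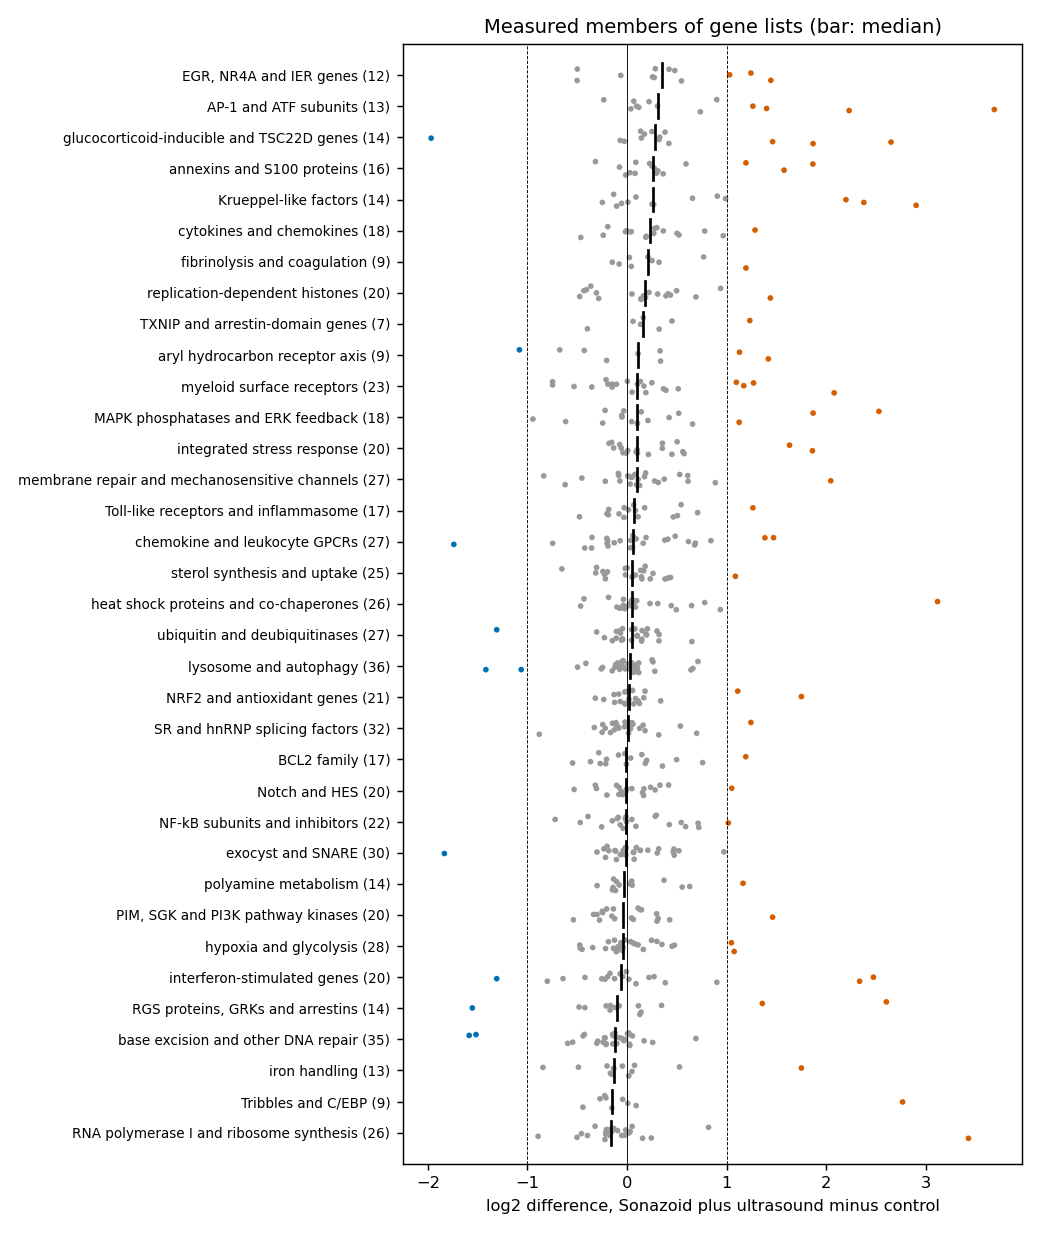
Log2 difference, combination minus control (x axis), of the measured members of the 35 gene lists with at least 1 member at 2-fold (rows, number measured in parentheses, black bar the median, orange at least 2-fold higher, blue at least 2-fold lower). Most members lie between -1 and 1, and the medians run from -0.16 for RNA polymerase I genes to 0.35 for EGR, NR4A and IER genes. Without scaling the median of all genes moves up by 0.17 on the log2 scale. The list medians also move up, some by less, such as fibrinolysis and coagulation (from 0.210 to 0.301). The negative ones shown then lie above 0.

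Among the 61 lists, 35 had at least 1 member at 2-fold and 26 had none, with medians from -0.26 to 0.18 for the latter. Scaling fixes the zero point of these medians: as deposited, where the median of all genes moves up by 0.17, 26 of the 27 negative medians were above 0. Relative to the median of all genes 23 of the 27 were still negative as deposited, among them RNA polymerase I (-0.15) and Tribbles and C/EBP (-0.14), and all 34 positive ones still positive. Scaling multiplies each array by 1 factor. Apart from values at the floor, these signs relative to all genes were therefore largely fixed beforehand and are no separate check. With 1.39% of all genes measured higher and 0.872% lower, a count of 0 lies near the share over all genes in lists of this size. Other lists with 0 members at 2-fold included cyclic AMP signalling (25 genes), calcium entry and NFAT (22), the JAK, STAT and SOCS genes (26), TGF-beta and SMAD genes (22), AU-rich decay factors (24), unfolded protein response genes (20), the circadian clock (17) and nuclear receptors (18). Within them SMAD7, an inhibitor of TGF-beta signals, was at 107 and 179, TOB1, which recruits the deadenylase, at 257 and 420.4 (its other probe set at log2 -0.26), and ZFP36, which binds AU-rich elements, at 198 and 321.

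The remaining higher genes that the rule names did not all follow the ultrasound arrays. MINDY3, a deubiquitinase, was at 85.7 in control, 252 under Sonazoid alone, 151 under ultrasound alone and 274 in the combination, with its other probe set at log2 0.17. KLC4, a kinesin light chain, was at 39.0 in control cells, 111 with the agent alone, 49.5 with sound alone and 111 with both. ATG16L2, a relative of the autophagy protein ATG16L1, was at 44.5 in control, 81.3 under Sonazoid alone, 55.5 under ultrasound alone and 121 in the combination. For these genes the array with Sonazoid alone lay nearer to the combination than the array with ultrasound alone. ADM5, of the adrenomedullin family, went from below the floor (10.6) to 65.2 under Sonazoid alone, 30.9 under ultrasound alone and 78.4 with both, and MTBP, an MDM2-binding protein, from 7.75 to 59.5, 44.5 and 83.3. LOC729683 stood at 9.40, 82.0, 74.0 and 73.0 on the control, Sonazoid, ultrasound and combination arrays, so all 3 treated arrays were alike, and the defensin DEFB124 at 44.3, 27.0 and 104 on the treated arrays, with its control signal under the floor. SIX5, a homeobox gene (6.80, 30.8, 41.2 and 80.0), S100A2 (13.3, 38.3, 75.1 and 86.8) and the ubiquitin ligase TRIM36 (31.8, 55.4, 64.3 and 87.7) were lowest in control and highest in the combination.

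Others of these genes were high on both ultrasound arrays. They include MATCAP2 (24.7, 39.3, 92.6 and 94.9), LYG1 (30.8, 22.2, 79.5 and 95.7), CAMKV (24.0, 38.6, 97.6 and 71.2), ITPRIPL2 (52.3, 98.2, 158 and 151), the DNA-binding protein ARID5B (25.3, 23.1, 46.5 and 68.8), the noncoding SLIRP-OT1 (28.3, 47.1, 114 and 77.5) and the histone gene H3C8 (39.7, 85.4, 189.7 and 108). For ITPRIPL2 this held on its brightest probe set alone. Of its 3 other above-floor probe sets, 1 was a bound (at least log2 1.06) and stood at 18.6 with ultrasound only. The others were at log2 -0.12 and -0.03. Among brighter genes, STX17-DT was at 119, 179.9, 368 and 331, NICOL1 at 350.3, 536, 874 and 837, EEIG2 at 209, 269, 409.7 and 429 and FAM76A at 442, 586, 1069.8 and 906 on the 4 arrays in the same order. The 2 other probe sets of FAM76A were at log2 -0.17 and 0.96. SAMHD1, a nucleotide hydrolase, ZBTB43 and CREBRF were named through 2 or more probe sets at 2-fold. Their brightest were 2.31-fold, 1.60-fold and 1.58-fold higher. For CREBRF both probe sets at 2-fold were bounds with control below the floor, and 1 other probe set of ZBTB43 was at log2 -0.15.

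Lower genes were mostly dim. Of the 5 at 2-fold with the stricter floor, GRK6 and ANXA2P2 are given above. SF3A1, a subunit of the U2 particle of the spliceosome, was at 2382 in control cells, 1311 with the agent alone, 1448 with sound alone and 1132 with both, and its 3 other probe sets were lower by 0.14 to 0.36 on the log2 scale, the smallest of which lay above 0 before scaling. KLHL36 was at 495 in control, 229 under Sonazoid alone, 234 under ultrasound alone and 231 in the combination, so all 3 treated arrays were alike, and SIGLEC6, a sialic acid-binding lectin, at 413 in control cells, 330.3 with the agent alone, 281 with sound alone and 200.1 with both. For both, another probe set went the opposite way (log2 0.26 and 0.02). Among bright genes under 2-fold, chosen after their values were seen, the homeobox gene IRX3 was at 3819.7 in control, 4181 under Sonazoid alone, 3789.8 under ultrasound alone and 2082 in the combination, CD43 (SPN) at 1337 in control cells, 1002 with the agent alone, 782 with sound alone and 711 with both and the repressor GFI1 at 1947 in control, 1986 under Sonazoid alone, 1293 under ultrasound alone and 1237 in the combination. IRX3 was low on the combination array alone. The other named genes at 2-fold lower had control signals of at most 216. CACNG4, a calcium channel subunit, was at 215 in control cells, 94.8 with the agent alone, 297 with sound alone and 64.0 with both, and EEF2KMT, a methyltransferase, at 173 in control, 163 under Sonazoid alone, 110.2 under ultrasound alone and 63.5 in the combination. The other probe sets of CACNG4 were below the floor on all 4 arrays. PLEK2, a relative of pleckstrin, was below the floor on all 3 treated arrays (90.5, 10.4, 9.58 and 12.3, at least 3.80-fold lower), whereas ZNF414 (89.2, 115, 109 and 22.1) and EFNA3 (71.0, 89.1, 72.4 and 20.3) were low on the combination array alone. CEACAM19 stood at 109, 75.2, 91.1 and 41.8. The rest of these genes, namely DTWD2, SLAIN1, TREML2, ASPRV1, LINC00482, TMEM51, MFGE8, TESK2, SLC49A3, CDR2L, LOC100652768, GLB1L, ANO8, CLBA1, LRRC43 and PRSS22, had control signals of 55.9 to 80.0 and were at or below 30.9 in the combination. The DNA repair genes XAB2 (89.3 and 29.8) and NEIL2 (216 and 75.6) were the 2 of 35 repair genes at 2-fold, and EXOC3L2 (89.8 and 25.2) the 1 of 30 exocyst and SNARE genes.

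The combination and ultrasound only share the control array, so their values are set side by side without a test. Among the 43 higher genes, the signal in the combination over that with ultrasound only ran from 0.740 for LMNA to 1.86 for H4C11. TRIB1 (1.65), GPR183 (1.39), MICA (1.35), SAT1 (1.33) and KLF4 (1.32) stood higher in the combination, and TNFRSF12A (0.818), VIM (0.835), FAM76A (0.846) and FOSB (0.852) lower. With 1 array a group the error of these ratios is unknown.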

How the data were processed

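RNA of U937 cells was hybridised to Affymetrix Human Genome U133 Plus 2.0 arrays, 1 array for each of 4 groups. The deposited values are intensity values per probe set on a linear scale, as the values show. The sources used here do not say how the authors summarised or scaled them. The 54675 probe sets were named from the platform annotation, of which 41097 had 1 symbol, 1801 several and 11777 none, and 41043 symbols were matched to RefSeq. Control probe sets of the array were kept out of the genes.

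The trimmed means of the arrays (2% cut at each end) differed by 1.16-fold, so each array was scaled to their common mean. Values under the floor (23.8, the median) were set to it, log2 was taken, and the brightest probe set over the 4 arrays stood for a gene. No test was made. Named were the 30 largest higher and 20 largest lower differences with no probe set opposed, the 8 largest bounds each way, genes with at least 2 probe sets at 2-fold, genes at 2-fold both with the stricter floor and with the mean of probe sets, up to 4 members a list, and genes marked in the text as chosen after their values were seen. To these the genes at 2-fold with the stricter floor alone were added after their values were seen. The members and gene lists were chosen with earlier results of these data known. Promoters came from RefSeq tables of build GRCh38.p14. Steps were tested on simulated data in Python 3.11.15 with pandas 2.3.3.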

Additional observations from a re-analysis of the deposited data

Results flagged for a closer look

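Some signals outside the gene comparison stood above their level in control. The array's control probe set for the 5′ end of 28S ribosomal RNA had a scaled signal of 16854.2 in the combination against 358 in control, and that for the middle 5059.8 against 1258. Of the 24584 above-floor probe sets with 1 gene symbol, 1.42% were at least 2-fold higher and 0.984% lower. Among 1206 probe sets with several gene symbols, 31 (2.57%) were at least 2-fold higher and 11 (0.912%) lower. Among 4229 probe sets with no symbol, 71 (1.68%) were at least 2-fold higher and 53 (1.25%) lower, not far from the 1.42% and 0.984%. Their genes are not named here, and with 1 array a group these differences were not tested.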

How the results depend on the processing

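With the values as deposited 301 genes were at least 2-fold higher and 73 lower, of which 180 and 73 were among the 180 and 113 counted after scaling. With the stricter floor of 151 the counts were 43 and 5 of 7797 genes, fewer genes being tested, and with the lower floor of 6.14 they were 1531 and 1354 of 17738. Quantile normalisation (174 and 126), the mean of probe sets (145 and 82) and gene-specific probe sets (143 and 91) stayed within 1.5 times of the scaled counts. Of the 99 genes compared singly, which leaves out genes named as list members alone, 92 were at 2-fold and 0 of these turned sign under the 6 alternatives where they had a value. This count was largely fixed beforehand. The naming rules favoured genes whose probe sets agree or that hold under some of these settings, and a change of floor cannot turn a sign. TECPR1 went from log2 0.05 to -1.02 with the mean of probe sets and -1.43 with gene-specific probe sets. Of the log2 differences of these single genes and the list medians, taken over the settings, 882 moved by less than 1.5-fold and 40 by more. Most that moved by more were single genes: 15 with the stricter floor, 9 with the lower floor, 8 with the mean of probe sets and 3 with gene-specific probe sets. With the values as deposited and with quantile normalisation all 99 genes moved by less. At most 2 list medians moved by more in any setting. No paired analysis was possible because each group has 1 array, and for the same reason no array could be left out. The error of every difference is therefore unknown, and differences near the floor are limited by signal over background: 88 of the higher and 85 of the lower genes at 2-fold had a mean signal under 50.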

Other observations

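Further genes outside the lists were chosen after their values were seen. The secreted inflammatory protein TNFAIP6 was at 41.7 in control cells, 56.1 with the agent alone, 103 with sound alone and 99.0 with both, with its second probe set at log2 0.87. The monocyte chemokine CCL7 was at 29.0 in control, 53.5 under Sonazoid alone, 71.9 under ultrasound alone and 66.1 in the combination. The ubiquitin ligase CBLB was at 63.0 in control cells, 57.8 with the agent alone, 132 with sound alone and 139 with both, and the protease FURIN at 55.1 in control, 68.6 under Sonazoid alone, 88.6 under ultrasound alone and 111 in the combination. The cytokine subunit IL27 was at 19.5 in control cells, 44.5 with the agent alone, 20.2 with sound alone and 66.2 with both, at least 2.78-fold higher than control in the combination. Lower were the methyltransferase SETD3, at 942 in control, 707 under Sonazoid alone, 585 under ultrasound alone and 505 in the combination, and GLYR1, at 879.8 in control cells, 653 with the agent alone, 578 with sound alone and 489 with both, whose 3 other probe sets lay between log2 -0.24 and 0.20. Of the subunits that join SF3A1 in its complex, SF3A2 stood at 386 and 308 and SF3A3 at 1603 and 1615 in control and combination.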
